A study of Mus musculus with 6 samples.

Results

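The SLC25 genes encode the mitochondrial carriers, the family of proteins that move metabolites across the inner mitochondrial membrane. Their members were taken from the deposited table as every protein-coding gene whose symbol is SLC25A followed by a digit. This gave 48 genes of the 58735 listed, spread over 19 chromosomes. Counts were high enough to test 42 of them, and the remaining 6 are described by their counts. RNA-Seq (sequencing of poly-A RNA) was available for 22Rv1, a human prostate cancer cell line, as 3 libraries of parental cells given vehicle and 3 libraries of a subline selected by culture in rising concentrations of BL-B01D1. BL-B01D1 is an antibody-drug conjugate against EGFR and HER3 that carries a topoisomerase I inhibitor. The labels name no edited gene in either group, and they give neither the doses nor the time of harvest. The resistant subline is a single selected line, so the replicate libraries measure the spread within each line and not that of repeated selections.

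Mitochondrial carriers share a fold of repeated membrane-spanning helix pairs and alternate between opening to the cytosol and to the matrix, usually exchanging one solute for another. They supply the matrix with ADP, phosphate and fuels, and they export ATP, citrate and other products. Close paralogs often carry the same solute in different tissues. In prostate epithelium, the citrate carrier is of interest because normal prostate secretes citrate, whereas prostate cancer cells tend to oxidize it or use it for lipid synthesis. None of these roles was measured here.

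Total counts on genes ranged from 13821639 to 17251491 per library. A level of 3 counts, taken as the floor of detection, corresponded to between 0.174 and 0.216 CPM (counts per 1e6 counts of the TMM-scaled library), and such floors cover counting error only. Of the luminal prostate markers, HOXB13, KRT8 and KRT18 had mean levels between 47.0 and 126 FPKM (CPM per kilobase of gene length). HOXB13 was lower in resistant than in parental cells (90.8 against 126 FPKM), as was KRT18 (47.0 against 53.1 FPKM), and KRT8 was higher (78.2 against 74.6 FPKM). KLK3 was low in both lines but higher in resistant cells (1.07 against 0.575 FPKM). Markers of immune, endothelial and fibroblast cells (PTPRC, PECAM1, CDH5 and COL1A2) had at most 3 counts in any library. With COL1A1, which had 164 to 259 counts, the summed level of that list was 13.4 to 15.5 CPM in parental and 11.2 to 12.6 CPM in resistant libraries. Whether these marker shifts bear on the SLC25 values was not tested.

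Most SLC25 transcripts differed little between the lines. At a false discovery rate (FDR) of less than 0.05 in edgeR's quasi-likelihood test, 13 of the 42 tested members were higher in resistant cells and 3 were lower. This is 31.0% and 7.14% of the members, whereas over all 17142 genes tested 17.1% were higher and 18.4% lower, or 35.5% in either direction. Among the 13576 protein-coding genes tested, 18.6% were higher and 22.1% lower. The median log2 fold change (resistant over parental) was 0.08 for the members and 0.00 for all tested genes. The changes were small, and 15 of the 16 members at this FDR had an absolute log2 fold change of less than 0.5. The median absolute log2 fold change was 0.10 for the members and 0.17 for all tested genes. The tested members were also more abundant, with a median level of 37.0 CPM against 19.7 CPM for all tested genes. Whether abundance bears on the share of members that passed was not tested.

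**Figure D1:**
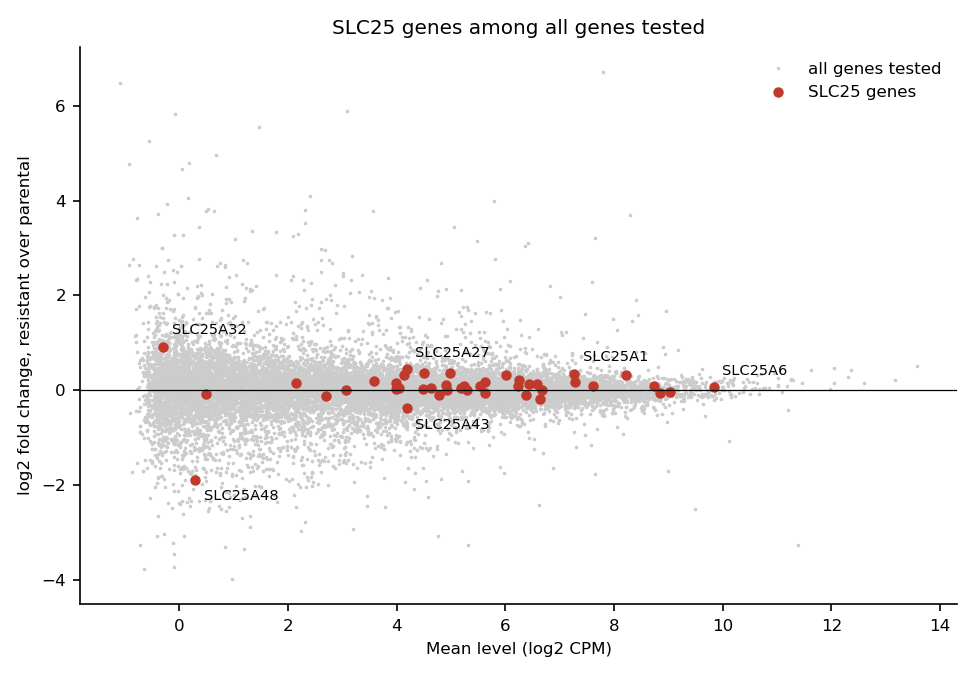
The log2 fold change of each gene, resistant over parental, is plotted against its mean level in log2 CPM, for all 17142 genes tested (gray) and the 42 tested SLC25 genes (red). The SLC25 genes lie close to the line of no change, with SLC25A48 (−1.89) farthest below it, and SLC25A32 (0.92) farthest above it but with few counts.

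The stricter call added a change of more than 1 on the log2 scale, in either direction, to the FDR threshold. By this call 1 member was lower and 0 were higher, where 2.84% of all tested genes were lower, 2.53% higher and 5.37% either. With an unadjusted p of less than 0.05 in place of the FDR, edgeR again gave 0 members above this change, and limma-voom and DESeq2 also called 0 higher. Without the size limit, 15 members were higher and 5 lower at that unadjusted p. The share of all tested genes at that p was not computed, but it is at least the 35.5% that passed the FDR threshold. Resistant libraries lay wholly above parental ones for 17 members and wholly below them for 4, which is 40.5% and 9.52% of those tested. Over all tested genes these shares were 22.1% and 22.8%, and 44.8% in either direction. In such bulk samples, a smaller number of cells that express a gene and less RNA per cell cannot be told apart.

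Levels within the family spanned more than 3 orders of magnitude. Per length, the ADP/ATP carriers SLC25A6 and SLC25A5 stood first and second in both lines, at 413 ± 3.03 and 311 ± 3.74 FPKM (SD, n = 3) in parental cells. SLC25A39, SLC25A1, SLC25A3 and SLC25A11 followed, between 54.4 and 117 FPKM. The median of the tested members was 8.49 FPKM in parental and 9.70 FPKM in resistant cells. SLC25A6 and SLC25A5 together made up 30.2% and 22.7% of the family's summed FPKM in parental cells, and 30.1% and 20.9% in resistant cells. Of the 41 pairs of neighbors in the order of levels, 23 overlapped in their library ranges in parental cells and 21 in resistant cells, so the middle of the order is not resolved. The first 11 places were held by the same genes in both lines, with SLC25A3 and SLC25A11 changing places, although their resistant libraries overlapped.

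**Figure D2:**
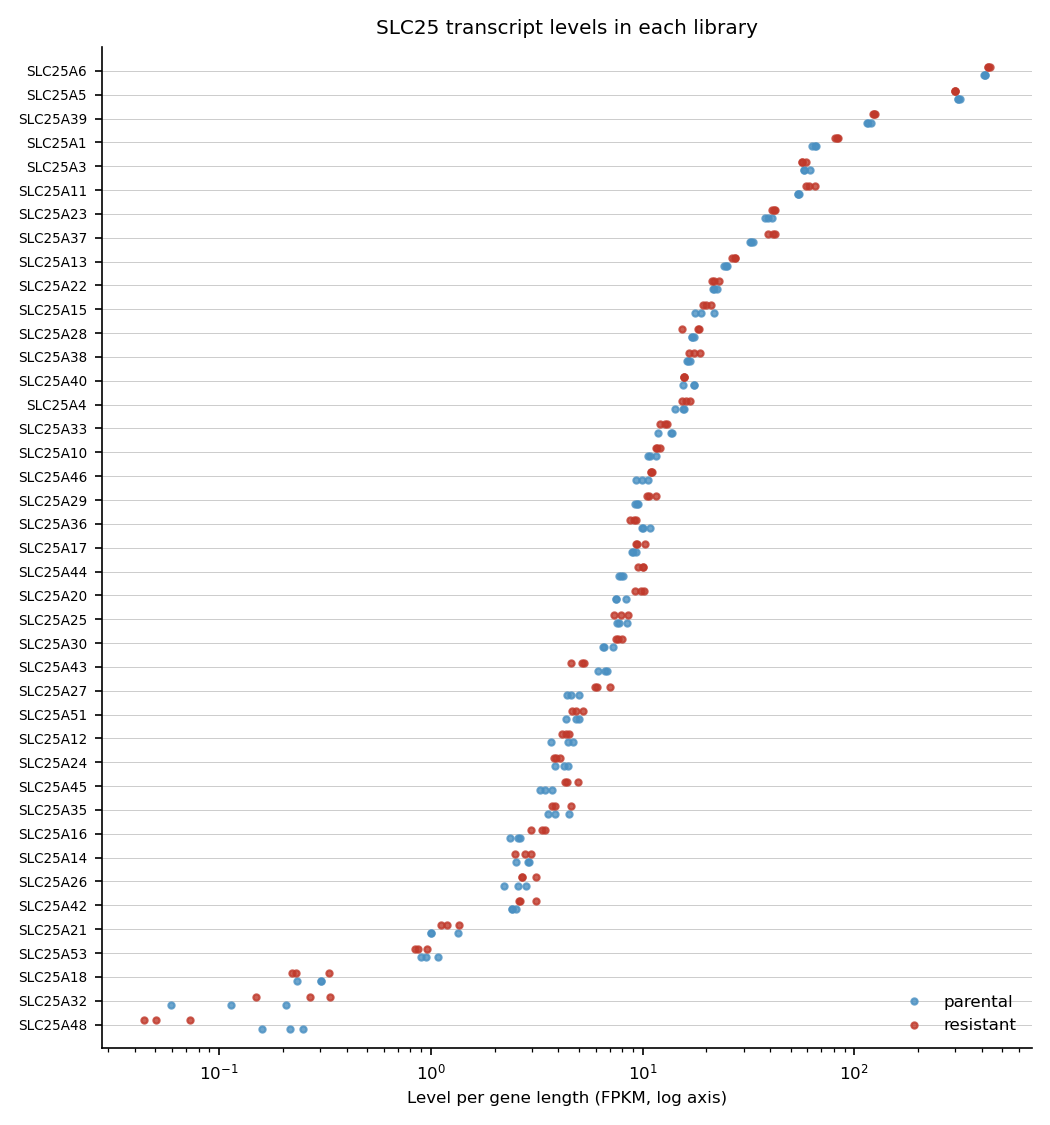
Levels per gene length (FPKM, log axis) are plotted for 41 of the 42 tested SLC25 genes, with 1 point per library and parental and resistant libraries in blue and red. SLC25A6 and SLC25A5 lie at 299 FPKM or above on average, whereas SLC25A18, SLC25A32 and SLC25A48 stay under 0.5 FPKM in every library.

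Of the 6 tested adenine nucleotide carriers, 0 passed the FDR threshold in edgeR's test, beside 35.5% of all tested genes in either direction. An unadjusted edgeR p of less than 0.05 was found for 3 (SLC25A5, SLC25A6 and SLC25A23). The share of all tested genes at that p was not computed, but it is at least the 35.5% that passed the FDR threshold. Each of the 6 had a 95% interval of the log2 fold change within 0.25 of no change. The ADP/ATP carriers exchange ATP made in the matrix for cytosolic ADP. SLC25A6 (ENSG00000169100; chromosome X of hg38, 1386152 to 1392724) had 886, 897 and 898 CPM in parental libraries and 924, 923 and 945 CPM in resistant libraries. The resistant libraries were all higher, by 4.11% in the fit (log2 fold change 0.06, SE 0.024, edgeR FDR 0.0519). SLC25A5 (ENSG00000005022; chromosome X, 119468400 to 119471319) had 462, 464 and 472 CPM in parental and 448, 451 and 448 CPM in resistant libraries. Here the resistant libraries were all lower, with a log2 fold change of −0.05 (SE 0.027, edgeR FDR 0.109). SLC25A5 passed in 2 of the 9 alternative analyses, with library size alone (FDR 0.0316) and with limma on log2(FPKM + 1) (FDR 0.0469). Both of these analyses left out TMM scaling. SLC25A4 (ENSG00000151729; chromosome 4, 185143241 to 185150382), the isoform known from heart and muscle, had 75.6, 68.7 and 74.8 CPM in parental and 74.4, 78.0 and 81.4 CPM in resistant libraries, which overlapped (log2 fold change 0.09, SE 0.049, edgeR FDR 0.137). SLC25A31, the testis isoform, had 1, 5 and 0 counts in parental and 0, 0 and 1 in resistant libraries. Summed, the 4 ADP/ATP carrier genes gave 1424 to 1446 CPM in parental and 1446 to 1474 CPM in resistant libraries.

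The call for SLC25A6 sat at the threshold. It passed in 5 of the 9 alternative analyses, limma-voom among them (log2 fold change 0.06, FDR 0.0138), and in 0 of the 6 fits made with one library removed. SLC25A5 and SLC25A6 have 9 and 6 named pseudogenes in the table, so their counts depend on how near-identical copies were counted. Those 15 pseudogenes held 7 to 17 counts per library in total. The ATP-Mg/phosphate carriers SLC25A23, SLC25A24 and SLC25A25, which set the matrix content of adenine nucleotides under calcium control, had log2 fold changes of 0.08, −0.09 and 0.01 (edgeR FDR 0.0517, 0.371 and 0.954). SLC25A23 lay above the parental libraries in each resistant library and passed in 4 of the 9 alternative analyses and in 1 of the 6 fits with a library removed. Its gene overlaps CRB3 on the other strand. SLC25A41, of the same subfamily, had 4 to 9 counts per library and was not tested.

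Of the 4 carriers of di- and tricarboxylates, 2 rose and 0 fell at an FDR of less than 0.05. In a class of 4 this is 50.0%, beside 17.1% of all tested genes higher and 35.5% in either direction. SLC25A1 (ENSG00000100075; chromosome 22, 19175575 to 19178830) encodes the citrate carrier, which exports citrate for cytosolic acetyl-CoA. It had 132, 137 and 139 CPM in the parental and 174, 169 and 176 CPM in the resistant libraries, with no overlap. Its log2 fold change was 0.35 (SE 0.036, edgeR FDR 8.94e-11), a rise of 27.5%, and removing any one library gave values from 0.33 to 0.37. Of all members, SLC25A1 and SLC25A37 had the smallest FDR values.

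SLC25A11 (ENSG00000108528; chromosome 17, 4937130 to 4940251) encodes the oxoglutarate/malate carrier, a part of the malate-aspartate shuttle. It rose from 145 ± 1.02 CPM (SD, n = 3) to 165 ± 8.68 CPM (SD, n = 3), with individual resistant libraries at 157, 163 and 174 CPM. The fitted change was 0.18 on the log2 scale (SE 0.037, edgeR FDR 1.32e-04). The gene overlaps RNF167 on the opposite strand, which had a log2 fold change of 0.27 (SE 0.037, edgeR FDR 1.43e-07), and strand use in counting is not stated. The dicarboxylate carrier SLC25A10 (log2 fold change 0.10, edgeR FDR 0.266) and the oxodicarboxylate carrier SLC25A21 (0.14, edgeR FDR 0.591) did not pass. Their 95% intervals ran from −0.04 to 0.25 and from −0.23 to 0.51, so a change as large as that of SLC25A1 lay inside the interval for SLC25A21 and outside it for SLC25A10.

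Among the carriers of amino acids and carnitine, 4 of the 9 tested members (44.4%) were higher and 0 lower at an FDR of less than 0.05, where 17.1% of all tested genes were higher and 35.5% passed in either direction. SLC25A44 (ENSG00000160785; chromosome 1, 156193932 to 156212796) transports branched-chain amino acids into the matrix. It had 56.2, 59.1 and 57.4 CPM in parental libraries and 69.1, 73.4 and 73.0 CPM in resistant libraries. The log2 fold change was 0.32 (SE 0.050, edgeR FDR 1.85e-06). SLC25A20 (ENSG00000178537; chromosome 3, 48856931 to 48898993), the carnitine/acylcarnitine carrier that brings fatty acids in for oxidation, had 16.5, 14.8 and 14.9 CPM against 18.2, 19.6 and 20.03 CPM. The change was also 0.32 on the log2 scale (SE 0.090, edgeR FDR 0.00450), and in both genes the groups did not overlap.

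The other members of this class that rose were SLC25A29, a carrier of basic amino acids, with a log2 fold change of 0.23 (SE 0.047, edgeR FDR 1.82e-04), and SLC25A13, an aspartate/glutamate carrier (citrin), with 0.13 (SE 0.041, edgeR FDR 0.00965). SLC25A12, the paralog of SLC25A13 known from brain and muscle, had 0.02 (95% interval −0.15 to 0.20). The glutamate carrier SLC25A22 had 0.00 (−0.08 to 0.09), the ornithine carrier SLC25A15 0.05 (−0.10 to 0.19) and the glycine carrier SLC25A38 0.10 (−0.02 to 0.22). SLC25A18, the second glutamate carrier, had 16 to 26 counts per library and an interval from −0.76 to 0.58, so that a change of the size seen in the rest of the class was not detectable at this depth. SLC25A2, an ornithine carrier, had at most 1 count in any library.

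Of the 5 carriers of phosphate, iron and glutathione, 2 rose and 0 fell. The 40.0% that passed is close to the 35.5% of all tested genes and 40.7% of protein-coding genes that passed in either direction, and 17.1% of all tested genes were higher. SLC25A37 (ENSG00000147454; chromosome 8, 23528805 to 23575463) encodes mitoferrin-1, an importer of iron. It had 264, 261 and 272 CPM in parental libraries and 343, 337 and 319 CPM in resistant libraries. Every resistant library was higher, and the log2 fold change of 0.33 (SE 0.031, edgeR FDR 1.52e-11) amounts to a rise of 25.4%. For its paralog SLC25A28, mitoferrin-2, the log2 fold change was 0.01 (95% interval −0.14 to 0.16).

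SLC25A39 (ENSG00000013306; chromosome 17, 44319625 to 44324870), which imports glutathione, was the third most abundant member per length (FPKM) and the fourth by CPM. It rose from 412 ± 8.60 CPM (SD, n = 3) to 437 ± 4.63 CPM (SD, n = 3), with parental libraries at 421, 410 and 404 CPM and resistant ones at 433, 435 and 442 CPM. This change was small (log2 fold change 0.08, SE 0.028, edgeR FDR 0.0134), and its edgeR FDR was 0.0583 without parental library 3 and 0.0505 without resistant library 3. Its paralog SLC25A40 did not pass (−0.10 on the log2 scale, edgeR FDR 0.0975). The phosphate carrier SLC25A3, which supplies the ATP synthase, had 527 ± 21.9 CPM (SD, n = 3) and 512 ± 11.6 CPM (SD, n = 3), with an interval from −0.10 to 0.01.

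**Figure D3:**
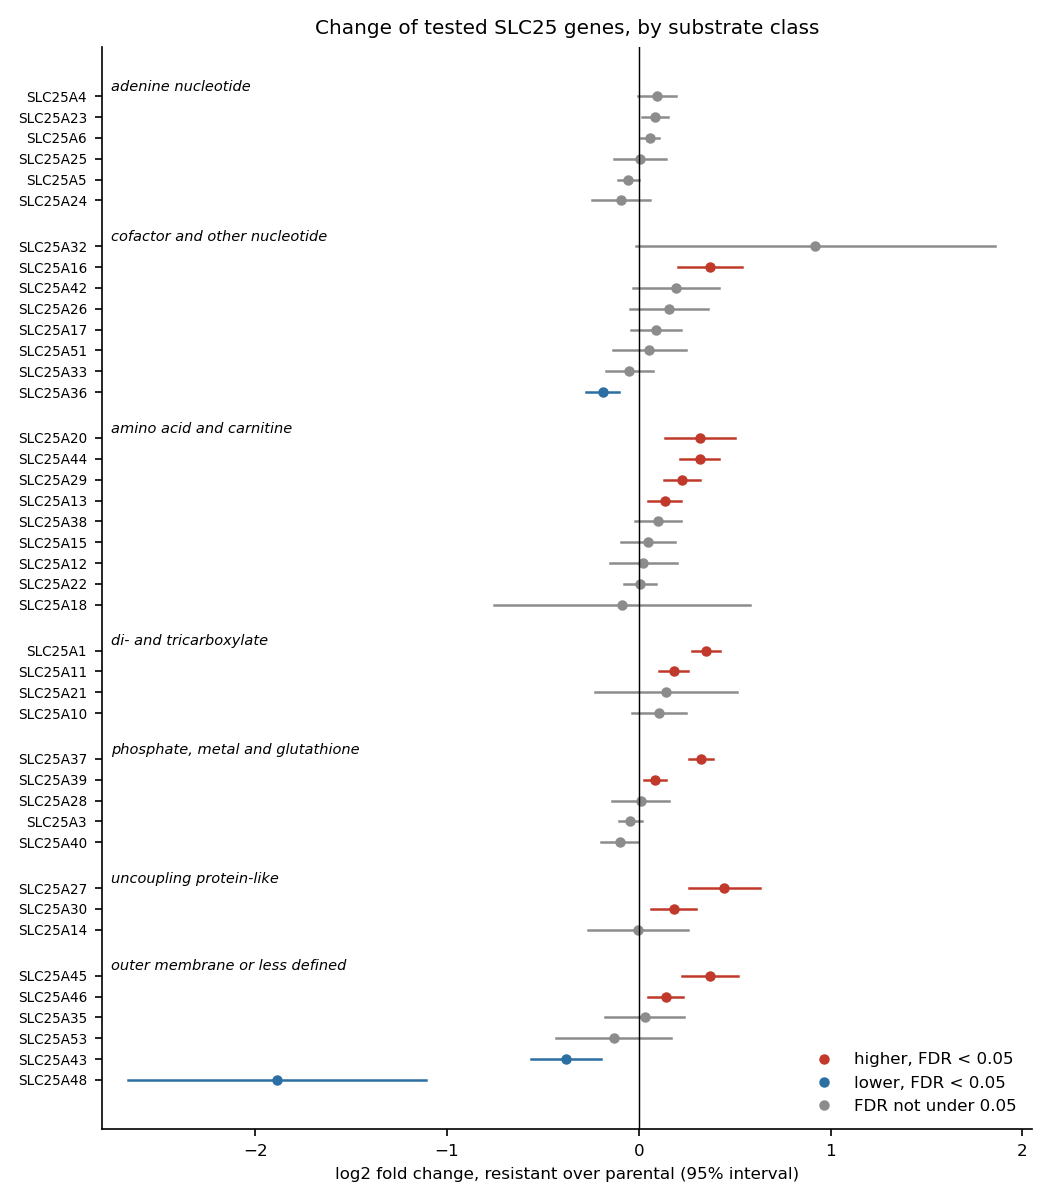
Points give the log2 fold change of 41 of the 42 tested SLC25 genes and bars the 95% interval, grouped by substrate class, with genes at an FDR of less than 0.05 in red (higher in resistant cells) or blue (lower). The 6 adenine nucleotide carriers sit close to 0, and SLC25A48 lies apart from the rest at −1.89.

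Cofactor and other nucleotide carriers showed 1 member higher and 1 lower among 9 tested, which is 22.2% beside 35.5% of all tested genes. SLC25A16 (ENSG00000122912; chromosome 10, 68477999 to 68527474), linked to the supply of coenzyme A, had 18.6, 20.2 and 20.6 CPM in parental libraries and 23.3, 26.2 and 27.2 CPM in resistant libraries. The fitted change was 0.37 on the log2 scale (SE 0.082, edgeR FDR 3.18e-04). SLC25A36 (ENSG00000114120; chromosome 3, 140941830 to 140980961), a pyrimidine nucleotide carrier, had 112, 104 and 103 CPM in parental libraries and 93.6, 96.2 and 89.9 CPM in resistant libraries. It fell by 0.19 on the log2 scale (SE 0.043, edgeR FDR 4.77e-04). In both genes the groups were apart.

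The members of this class described next had FDR values of 0.123 or more. SLC25A33, the paralog of SLC25A36, had a log2 fold change of −0.05, and SLC25A51 (NAD), SLC25A17 (a peroxisomal carrier), SLC25A26 (S-adenosylmethionine) and SLC25A42 (coenzyme A) had values between 0.06 and 0.19. SLC25A32, a folate and FAD carrier, had 13, 7 and 3 counts in parental libraries and 9, 18 and 16 in resistant ones, which overlapped. Its log2 fold change of 0.92 had an interval from −0.02 to 1.86 and was 1.46 without parental library 1, when it passed both thresholds. Its gene overlaps DCAF13, which had 744 to 969 counts, and a second listed protein-coding gene. SLC25A52 had 1 to 4 counts per library.

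Of the 3 uncoupling protein-like carriers, which lie close in sequence to the uncoupling proteins, 2 were higher, beside 17.1% of all tested genes higher and 35.5% in either direction. SLC25A27 (ENSG00000153291; chromosome 6, 46652915 to 46678193), known as UCP4 and described mainly in brain, had 16.5, 15.1 and 14.4 CPM in parental libraries against 19.5, 23.2 and 20.1 CPM in resistant libraries. With 0.44 on the log2 scale (SE 0.092, edgeR FDR 1.36e-04), this was the largest increase among the members at an FDR of less than 0.05, and it corresponds to 36.1%. SLC25A30 (ENSG00000174032; chromosome 13, 45393316 to 45418455), a paralog of the uncoupling proteins known from kidney, had 49.3, 44.3 and 44.9 CPM in parental libraries and 54.2, 51.1 and 51.95 CPM in resistant libraries, all higher. On the log2 scale this was 0.18 (SE 0.058, edgeR FDR 0.0118), which did not pass without parental library 2 (FDR 0.0759) or without resistant library 1 (FDR 0.0691). SLC25A30 overlaps TPT1-AS1 on the other strand, whose log2 fold change was 0.64 (SE 0.18, edgeR FDR 0.00431). SLC25A14 had −0.00 (95% interval −0.27 to 0.26).

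The remaining class holds carriers of the outer membrane and those whose solutes are less well defined, and it contained the largest fall. SLC25A48 (ENSG00000145832; chromosome 5, 135579202 to 135889770), which has been linked to choline import, was the single member past both thresholds. It had 23, 35 and 25 counts in parental libraries and 7, 9 and 6 in resistant libraries, that is 1.74 ± 0.38 CPM (SD, n = 3) and 0.468 ± 0.13 CPM (SD, n = 3). Its log2 fold change was −1.89 (SE 0.38, edgeR FDR 1.19e-04), with a 95% interval from −2.66 to −1.11, and removing any one library gave values from −2.11 to −1.73. SLC25A48 was tested because of its parental libraries. The filter asks for about 10 counts, scaled by library size, in at least 3 libraries. The resistant libraries, with 7, 9 and 6 counts, would not have met it by themselves. The fits with a library removed share this limit. The level was near the floor of detection in resistant cells, and on the scale of log2(FPKM + 1) the change was −0.19. Its gene overlaps 6 other listed genes, which had at most 1 count in any library.

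SLC25A43 (ENSG00000077713; chromosome X, 119399060 to 119454478), a carrier without an assigned solute, also fell. Its levels were 21.2, 19.2 and 20.7 CPM in parental libraries and 16.2, 16.5 and 14.4 CPM in resistant libraries, a log2 fold change of −0.38 (SE 0.090, edgeR FDR 7.66e-04). The gene lies 13922 bases from SLC25A5, which had −0.05. SLC25A45 (ENSG00000162241) rose, from 27.5 ± 1.80 CPM (SD, n = 3) to 35.6 ± 2.78 CPM (SD, n = 3) (log2 fold change 0.37, SE 0.073, edgeR FDR 6.98e-05).

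SLC25A46, an outer membrane protein involved in the shape of mitochondria, had a log2 fold change of 0.14 (SE 0.046, edgeR FDR 0.0153), which did not pass without parental library 2 (0.09, FDR 0.166). SLC25A35 and SLC25A53 did not pass (edgeR FDR 0.850 and 0.540). SLC25A34 had 3 to 12 counts per library and SLC25A47, a liver carrier, had 1 to 4. Neither was tested.

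**Figure D4:**
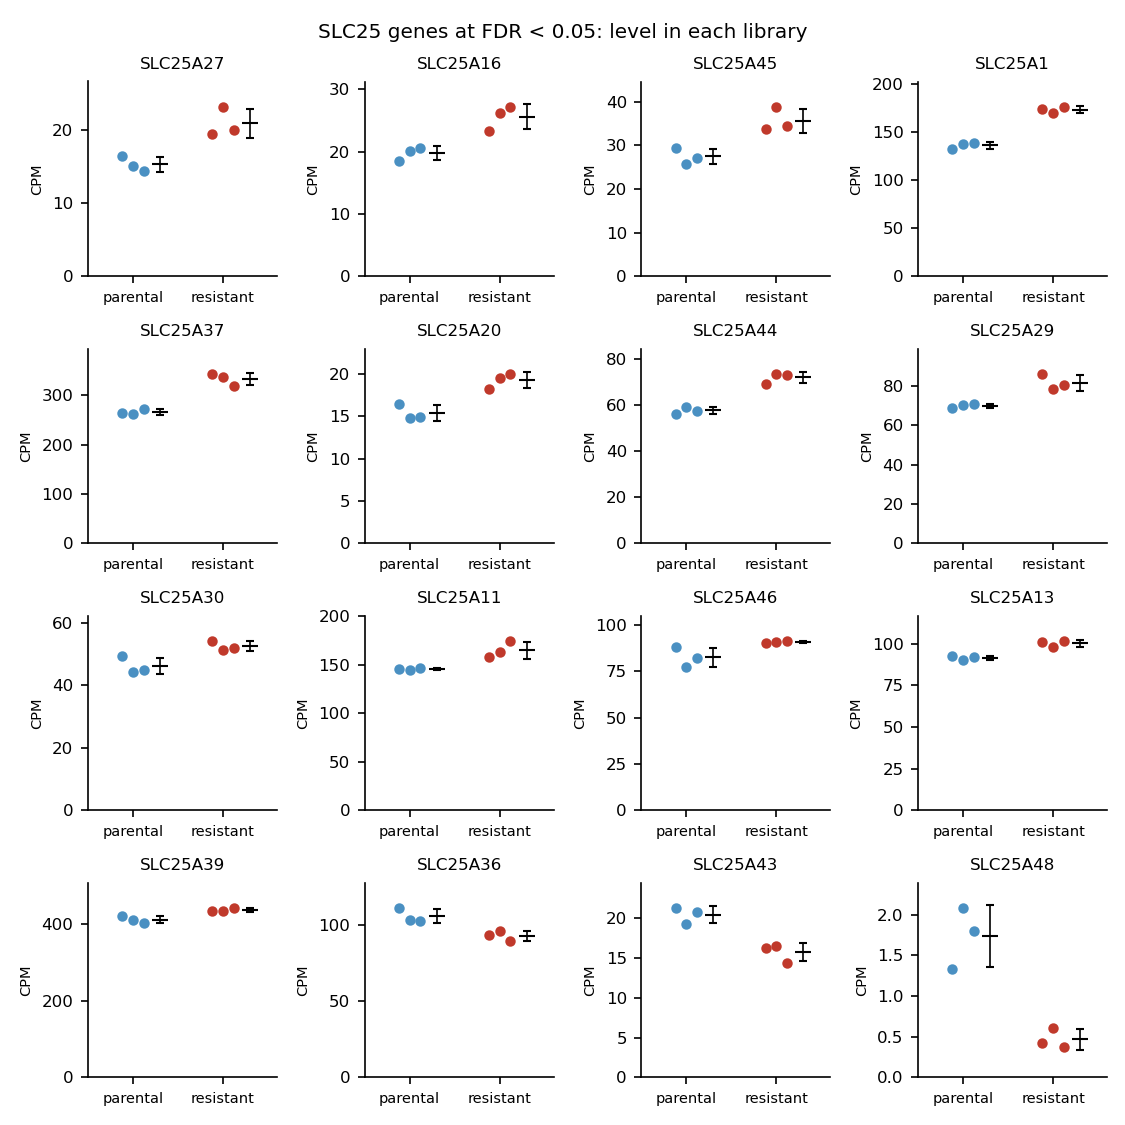
Levels in CPM are shown for the 16 SLC25 genes at an FDR of less than 0.05, with 1 point per library, and mean ± SD of 3 libraries as bars beside the points. The groups do not overlap in any of the 16 panels, which were picked for a difference between these same libraries. Over all tested genes the groups do not overlap for 44.8%. The differences are small relative to the levels except in SLC25A48, which falls from 1.74 to 0.468 CPM.

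Paralogs that carry the same or similar solutes were compared as the ratio of their 2 counts within each library. The 6 pairs were chosen after the values were seen. The log2 ratio of SLC25A37 to SLC25A28 was 3.13, 3.12 and 3.15 in parental libraries and 3.41, 3.39 and 3.56 in resistant libraries. The difference of 0.32 separated the groups (p = 0.1 in a two-sided exact permutation test, and 0.15 after Benjamini-Hochberg adjustment over 6 pairs). The groups were also apart for SLC25A6 to SLC25A5 (difference 0.11), SLC25A39 to SLC25A40 (0.18) and SLC25A36 to SLC25A33 (−0.14), each with the same exact permutation p of 0.1. For SLC25A13 to SLC25A12 the difference was 0.10 and for SLC25A30 to SLC25A14 it was 0.20, and in both pairs the groups overlapped (exact permutation p = 0.4 and 0.3). With 3 libraries against 3, no p of this two-sided exact permutation test can fall below 0.1.

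**Figure D5:**
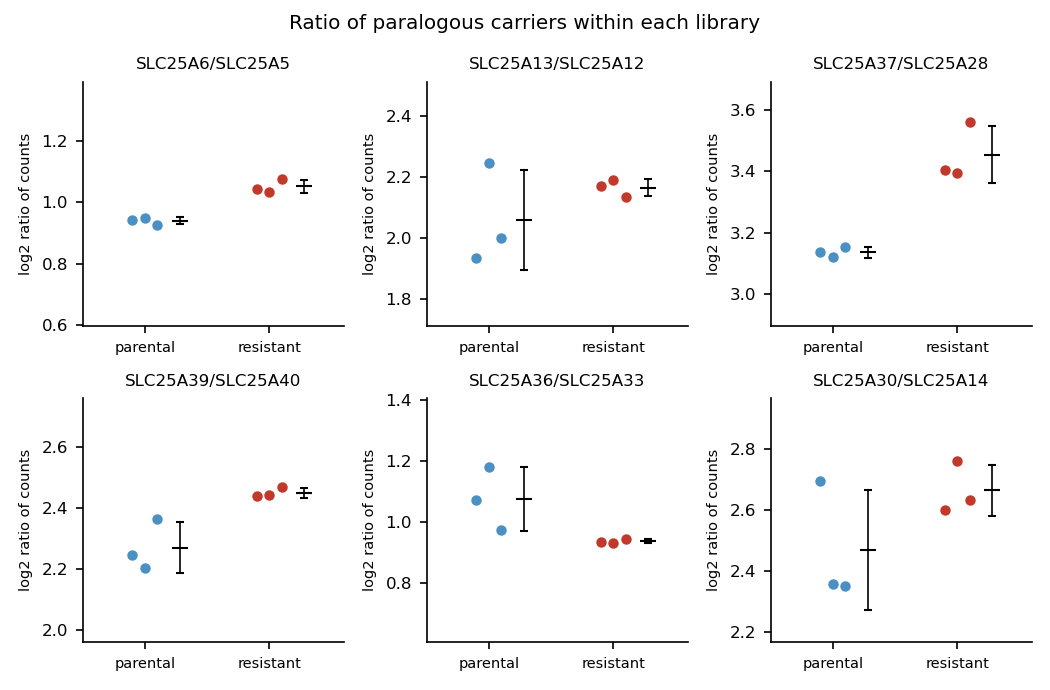
Each panel gives the log2 ratio of counts of 2 paralogous carriers in each library, with the mean ± SD of 3 libraries beside the points. All panels span the same height of 0.8 on the log2 axis. Parental and resistant libraries are apart in 4 panels, most widely for SLC25A37 to SLC25A28, and overlap for SLC25A13 to SLC25A12 and SLC25A30 to SLC25A14. The pairs were picked with these values known, so the number of panels that are apart carries no test.

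Summed over all 48 members, carrier transcripts made up 4238 to 4316 CPM in parental libraries and 4488 to 4509 CPM in resistant libraries, a ratio of the group means of 1.05. By class, the ratio was 1.19 for di- and tricarboxylate carriers, 1.17 for uncoupling protein-like carriers, 1.10 for amino acid and carnitine carriers, 1.07 for the outer membrane or less defined class, 1.05 for phosphate, iron and glutathione carriers, 1.02 for adenine nucleotide carriers and 0.996 for cofactor and other nucleotide carriers. These ratios describe the sums and carry no test.

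Other mitochondrial transport and import genes were counted beside the family. Of 31 listed genes, 30 were tested, and 3 were higher and 5 lower at an FDR of less than 0.05 in edgeR's test, with a median log2 fold change of 0.01. The 8 that passed are 26.7% of those tested, beside 35.5% of all tested genes and 40.7% of protein-coding genes. UCP2 (ENSG00000175567; chromosome 11, 73974667 to 73983307), a member of the same carrier family under another symbol, had 28.7, 28.2 and 32.6 CPM in parental libraries and 18.8, 20.2 and 19.2 CPM in resistant libraries. All resistant libraries were lower, and its value of −0.62 on the log2 scale (SE 0.079, edgeR FDR 2.64e-08) was the one absolute value of more than 0.5 in the list. The other genes that passed are named because they were few, after their values were seen. The pyruvate carrier subunit MPC2, the calcium uniporter regulator MICU3 and the import chaperone TIMM8B were higher, by 0.14, 0.38 and 0.26 on the log2 scale. The serine carrier SFXN1, the outer membrane channels VDAC2 and VDAC3 and the import chaperone TIMM10 were lower, at −0.24, −0.14, −0.12 and −0.21. MICU3 was close to the threshold (edgeR FDR 0.0491), and for VDAC3 and TIMM10 the parental and resistant libraries overlapped.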

How the data were processed

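RNA-Seq of 6 libraries, 3 parental and 3 resistant, was grouped by the sample labels. The organism label says mouse, but 22Rv1, the identifiers and the build are human, so human genes were assumed throughout. The authors purified poly-A RNA, mapped reads to hg38 with HISAT2 (2.0.5) and deposited raw featureCounts (1.5.0-p3) counts per gene. The annotation release and strand setting are not given in the sources used here. Gene lengths were taken from the same table. The deposited counts were filtered with filterByExpr, scaled with TMM and tested in edgeR 4.0.16 (R 4.3.3) by its quasi-likelihood method, with Benjamini-Hochberg adjustment over 17142 genes. The standard error is the fold change divided by the square root of F, and intervals are 95%. Unless another tool is named, each FDR is edgeR's. Alternatives were limma-voom (3.58.1), DESeq2 (1.42.0), RLE or no scaling, no filter, a minimum of 10 counts per library, protein-coding genes only, limma on log2(FPKM + 1), a replicate block and leaving out each library. For limma on log2(FPKM + 1), FPKM was computed from total counts without TMM scaling, unlike the FPKM levels printed elsewhere.

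Members, classes and lists were chosen with earlier results of these data known. Named with values in every library were members past both thresholds, the 2 with the largest change per class among those at an FDR of less than 0.05, the 3 most abundant and the ADP/ATP carriers. Other members are given by range or group values. Nothing says that replicates came from separate cultures, so p-values measure the spread between libraries. Pairs of libraries within a group differed by 1.77 to 2.47 chi-square per degree of freedom, above sampling noise. All 6 were counted as separate samples, although such a spread does not show that they came from separate cultures. In simulated counts for this comparison (16859 genes, 193 changed by 1 on the log2 scale), edgeR recovered 167 with 10 false calls. The simulation gave genes of equal level the same spread, and changed a smaller share of genes than the 35.5% that passed here. Its rates may therefore not hold for these data. Smaller changes, the size of most SLC25 changes here, were not simulated. The number of sample columns not used was 0. No human sequence was used. Values of 1 tested member and of some markers are not reported here, although counts over the family include that member.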

Additional observations from a re-analysis of the deposited data

How the results depend on the processing

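The number of members higher at an FDR of less than 0.05, 13, was lowest at 10 (limma on log2(FPKM + 1)) and highest at 15 (limma-voom, RLE scaling, a minimum of 10 counts per library, or a fit restricted to protein-coding genes), and lay from 12 to 14 with a library left out. The number lower, 3, ranged from 2 to 4, and from 3 to 4 with a library left out. Of the 16 members, 13 passed in every fit that could test them, and SLC25A30, SLC25A39 and SLC25A46 did not. The count of members called lower past both thresholds, 1, was 0 with at least 10 counts in every library, where SLC25A48 was not tested, and 0 with limma on log2(FPKM + 1), and stayed at 1 with each library left out. The count called higher, 0, ranged from 0 to 1 with a library left out, where SLC25A32 entered without parental library 1. No named member reversed its direction with a call. Library size alone moved the median log2 fold change of all genes from 0.00 to −0.01. Replicate numbers are shared by both groups, but same-numbered libraries did not deviate together (correlations of −0.0196 to −0.00806), so the numbers do not pair them, and the replicate block gave 13 higher and 3 lower, with 1 called lower and 0 called higher. Depth limits the 6 members not tested and SLC25A18, SLC25A32 and SLC25A48.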

Other observations

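The table also listed 45 genes named after SLC25 members that are not protein coding, 40 of them pseudogenes. The pseudogenes held 30 to 66 counts per library in total, and the highest single value was 20 counts. Counts were high enough to test 4 of the 45, and 0 passed at an FDR of less than 0.05 or at an unadjusted p of less than 0.05 in edgeR's test. Over all tested genes 35.5% passed at that FDR, so 0 of 4 says little. The antisense RNA SLC25A25-AS1 had 237 to 277 counts in parental and 201 to 240 counts in resistant libraries (log2 fold change −0.16, SE 0.099, edgeR FDR 0.206). SLC25A5-AS1 had 61 to 93 and 95 to 99 counts, so that the groups did not overlap in raw counts, with a log2 fold change of 0.26 (SE 0.16, edgeR FDR 0.213). For SLC25A15P4 and SLC25A21-AS1 the log2 fold changes were 0.30 and 0.06 (edgeR FDR 0.572 and 0.855). Without a stated strand setting, reads of an antisense RNA and of the carrier gene it overlaps cannot be told apart.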
